A study of Rattus norvegicus with 22 samples.

Results

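Astrocyte marker genes, 7 in number, were followed through 12 RNA libraries of rat prefrontal cortex: Gfap (ENSRNOG00000002919), Aqp4 (ENSRNOG00000016043), Slc1a2 (ENSRNOG00000005479), Slc1a3 (ENSRNOG00000016163), Glul (ENSRNOG00000049560), Aldoc (ENSRNOG00000011452) and S100b (ENSRNOG00000001295). They were picked by Ensembl identifier as known astrocyte genes, and all 7 were found among the 29663 genes of the deposited table and among the 15326 genes tested. The table carries identifiers without names, so the symbols are those supplied with the list of identifiers and were not checked against an annotation of the file. The tissue came from male Sprague-Dawley rats, in 4 groups of 3 libraries each: control, WIN-treated (WIN is a synthetic agonist of cannabinoid receptors), cocaine-treated, and treated with both WIN and cocaine. The title of the series places the cannabinoid exposure in adolescence and asks how it alters the first response to cocaine. Neither doses nor ages, intervals or the vehicle of the control group were known for this work. The labels also do not say whether the libraries of a group come from separate animals, so p-values measure the spread between these libraries, which may be technical.

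Astrocytes are the glial cells that clear transmitter from synapses, buffer water and ions and supply neurons with metabolites. Glutamate released by neurons enters astrocytes mainly through the transporters encoded by Slc1a2 (GLT-1) and Slc1a3 (GLAST), is turned into glutamine by the enzyme encoded by Glul (glutamine synthetase), and returns to neurons in that form. Gfap encodes the intermediate filament protein whose level is widely read as a sign of astrocyte reactivity, and Aqp4 encodes the water channel of the astrocyte endfeet around blood vessels. Aldoc encodes the brain form of the glycolytic enzyme aldolase, and S100b a calcium-binding protein. Glul and S100b are also made by cells of the oligodendrocyte lineage. In whole tissue, fewer astrocytes and less RNA per astrocyte cannot be told apart.

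The upstream sequences of 3 of these genes are shown, chosen by the RNA levels described below. The genes are the transporter pair, which varied together across libraries, and Glul, which had its lowest values in WIN with cocaine. The sequences are the 250 bases before the annotated start in RefSeq on build GRCr8, written 5′ to 3′ on the strand of the gene. Capitals mark matches on either strand to 2 short promoter motifs, the CCAAT box (CCAAT) and the GC box (GGGCGG). Slc1a2 lies at chr3:109459859-109460108 on the plus strand (the farther upstream of 2 listed starts), Slc1a3 at chr2:59557809-59558058 on the minus strand (the farthest upstream of 3), and the 2 listed starts of Glul at chr13:68519250-68519499 and chr13:68575816-68576065 on the plus strand, 56566 bases apart.
Slc1a2: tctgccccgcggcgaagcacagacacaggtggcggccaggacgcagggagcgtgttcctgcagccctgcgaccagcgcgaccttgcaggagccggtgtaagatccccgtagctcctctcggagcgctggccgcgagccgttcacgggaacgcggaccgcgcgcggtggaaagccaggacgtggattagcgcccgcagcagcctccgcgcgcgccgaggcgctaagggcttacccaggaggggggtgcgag
Slc1a3: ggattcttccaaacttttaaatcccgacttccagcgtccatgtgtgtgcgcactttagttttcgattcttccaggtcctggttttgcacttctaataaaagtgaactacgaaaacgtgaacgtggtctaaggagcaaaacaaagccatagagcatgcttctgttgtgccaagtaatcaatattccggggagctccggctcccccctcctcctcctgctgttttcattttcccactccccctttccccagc
Glul, farther start: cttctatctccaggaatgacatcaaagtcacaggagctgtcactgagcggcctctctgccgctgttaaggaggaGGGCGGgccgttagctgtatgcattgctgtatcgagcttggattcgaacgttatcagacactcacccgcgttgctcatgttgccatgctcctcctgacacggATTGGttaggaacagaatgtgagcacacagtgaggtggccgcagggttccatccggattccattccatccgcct
Glul, nearer start: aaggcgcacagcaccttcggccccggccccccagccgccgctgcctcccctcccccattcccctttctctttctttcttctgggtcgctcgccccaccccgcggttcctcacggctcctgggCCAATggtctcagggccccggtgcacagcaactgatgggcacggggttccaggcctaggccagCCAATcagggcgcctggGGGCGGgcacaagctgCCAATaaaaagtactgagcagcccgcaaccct
The 2 transporters differ in composition, with 71.2% G or C before the start of Slc1a2 and 48.0% before that of Slc1a3. Neither of these windows holds a match to these or to the other 5 motifs searched on both strands, whereas the nearer start of Glul has 3 CCAAT boxes and 1 GC box and the farther start 1 of each. For scale, a CCAAT box occurred in 34.3% and a GC box in 32.4% of 27457 promoters of that length, taking the farthest upstream start of each gene. Of the other motifs, the TATA box (TATAAA) occurred in 13.1% of those promoters. The E-box of the form CACGTG occurred in 5.78%, the AP-1 motif TGANTCA in 6.33% and the STAT motif TTCNNNGAA in 7.503%. The longer NF-I motif occurred in 0.0401%. No match overlapped that of another motif in the windows shown. Which start is used in these libraries was not measured here, and a match is a description of the letters only.

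The values are FPKM, reads per gene scaled to the length of the gene and the total of the library. Levels compared between genes thus depend on the length used for each gene. Library totals, recovered from the steps in the FPKM values, ran from 20852442 to 27677077 reads. The 7 genes were deeply covered, with 5524 to 7849 reads per library for Aqp4, the thinnest, and 30540 to 42382 for Glul. Counting error was thus at most 1.35% of any value (1 SD of a Poisson count), which is small beside the spread between libraries described below and does not include other sources of technical error. The lengths implied by the values were 1344 bp for Aldoc to 4928 bp for Aqp4. That of Slc1a2 was 1705 bp.

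By mean FPKM over the 12 libraries the genes fell into 3 tiers. Glul (627), Aldoc (580) and S100b (562) stood at ranks 74, 86 and 90 of the 15326 genes tested. Slc1a2 (317), Gfap (255) and Slc1a3 (154) followed at ranks 200, 276 and 549, and Aqp4 (54.3) stood at rank 1851. These levels show that all 7 genes were well expressed in this tissue. They do not check the astrocyte label, since a high level alone does not tell cell types apart. Defining markers of other cell types were not analysed here, because the table does not name its genes.

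Gfap, the filament protein, ranged over more FPKM within the control group, and within the WIN group, than the 4 group means did. Control libraries had FPKM values of 306, 194 and 197, and WIN libraries 180, 279 and 272. Each of these groups held 1 library apart from the other 2, high in control and low in WIN. The cocaine libraries were close together at 301, 300.3 and 270.4, and those of WIN with cocaine at 260, 257 and 241. The mean of the control group was 232 ± 63.7, of WIN 244 ± 55.6, of cocaine 290.4 ± 17.4 and of WIN with cocaine 253 ± 9.94 (SD, n = 3). In the order of means, cocaine stood above WIN with cocaine with no overlap of libraries, while WIN with cocaine, WIN and control differed by less than the spread of their libraries.

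Aqp4, the water channel, had its highest mean in control and overlapping values in all neighbouring groups. Control libraries had FPKM values of 67.7, 61.7 and 52.2, WIN libraries 50.7, 56.4 and 56.9, cocaine libraries 50.8, 47.9 and 52.9, and those given both drugs 48.7, 54.1 and 51.8. The 2 highest of the 12 values were control replicates 1 and 2, and the third control library lay among the treated ones. Means were 60.5 ± 7.83, 54.7 ± 3.47, 50.6 ± 2.51 and 51.5 ± 2.67 in that order of groups (SD, n = 3).

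Slc1a2, the main glutamate transporter of the forebrain, spanned the widest range of the 7 genes, 2.13-fold from lowest to highest library. Control libraries had FPKM values of 387, 412 and 337, and WIN libraries 318, 286 and 378. Cocaine libraries had 271, 351 and 271, and those given both drugs 193, 262 and 343. Means stepped down from control (379 ± 37.9) through WIN (327 ± 47.0) and cocaine (298 ± 45.9) to WIN with cocaine (266 ± 74.9; SD, n = 3), and although control exceeded WIN by more than the larger SD, each neighbouring pair of groups overlapped. The lowest value belonged to WIN with cocaine replicate 1, and replicate 3 of the same group lay within the control range.

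Slc1a3, the second glial glutamate transporter, followed the same order of means over a narrower range, 1.33-fold. Control libraries had FPKM values of 176, 163 and 154, WIN libraries 144, 152 and 172, cocaine libraries 149, 145 and 157, and those given both drugs 132, 144 and 162. Means were 164 ± 10.6, 156 ± 14.7, 150.0 ± 6.07 and 146 ± 15.2 in that order (SD, n = 3), and no neighbouring groups differed beyond their spread. The ratio of Slc1a2 to Slc1a3 within a library does not depend on the scaling factor of that library. It was 2.20, 2.53 and 2.18 in the controls, 2.21, 1.88 and 2.20 after WIN, 1.82, 2.42 and 1.73 after cocaine, and 1.47, 1.82 and 2.12 after both. Group means of this ratio were 2.31 ± 0.197, 2.096 ± 0.185, 1.99 ± 0.375 and 1.80 ± 0.326 (SD, n = 3). The 3 control ratios lay above the 3 of WIN with cocaine, by a narrow gap (2.18 against 2.12), and every other pair of groups overlapped; no test was made of this ratio.

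**Figure D1:**
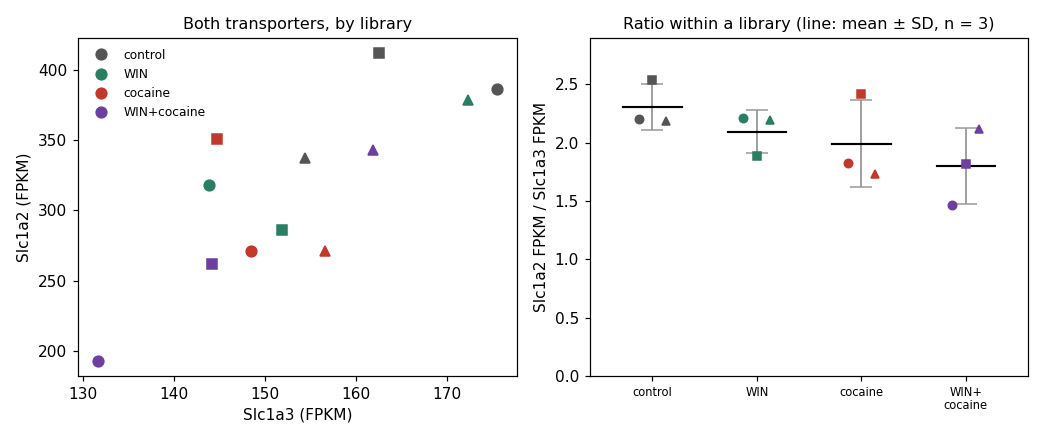
Left, FPKM of Slc1a2 against Slc1a3 in each of the 12 libraries, coloured by group; right, the ratio of the 2 within each library, with the mean (black line) and SD (grey bars, n = 3). Circles, squares and triangles are replicates 1, 2 and 3. Libraries high in one transporter tended to be high in the other, and the ratios ran from 1.47 to 2.53, with the control libraries (2.18 and above) over those of WIN with cocaine (2.12 and below) and all other pairs of groups overlapping.

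Glul, the glutamine synthetase gene, was the member whose WIN with cocaine libraries were the lowest, by a narrow margin. Control libraries had FPKM values of 695, 598 and 638, and WIN libraries 598, 611 and 692. Cocaine libraries had 670.3, 698 and 631, and those given both drugs 536, 558 and 596. The 3 libraries of WIN with cocaine were the lowest of the 12. The highest of them (595.7) lay just under the lowest of the others (597.6 in control replicate 2). The share of all genes with this order of libraries was not counted. Means were 643 ± 48.7, 634 ± 50.8, 666 ± 33.7 and 563 ± 30.4 (SD, n = 3). After median-ratio rescaling of the libraries Glul kept apart from cocaine, but not from WIN or control, and after quantile normalization it kept apart from cocaine and control, but not from WIN.

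Aldoc and S100b, the other 2 abundant genes, were the steadiest and second steadiest members by range. Aldoc had FPKM values of 587, 534 and 610.4 in the controls, 566, 549 and 623 after WIN, 619, 598 and 609 after cocaine, and 571, 557 and 534 after both. Its highest library exceeded its lowest by 1.17-fold, and the 3 cocaine libraries lay above the 3 of WIN with cocaine. S100b had 620.4, 531 and 575 in the controls, 533, 557 and 622 after WIN, 602, 519 and 572 after cocaine, and 549.7, 543 and 523 after both. Its group means ran from 539 ± 13.8 in WIN with cocaine to 576 ± 44.6 in control (SD, n = 3), with every pair of neighbouring groups overlapping.

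**Figure D2:**
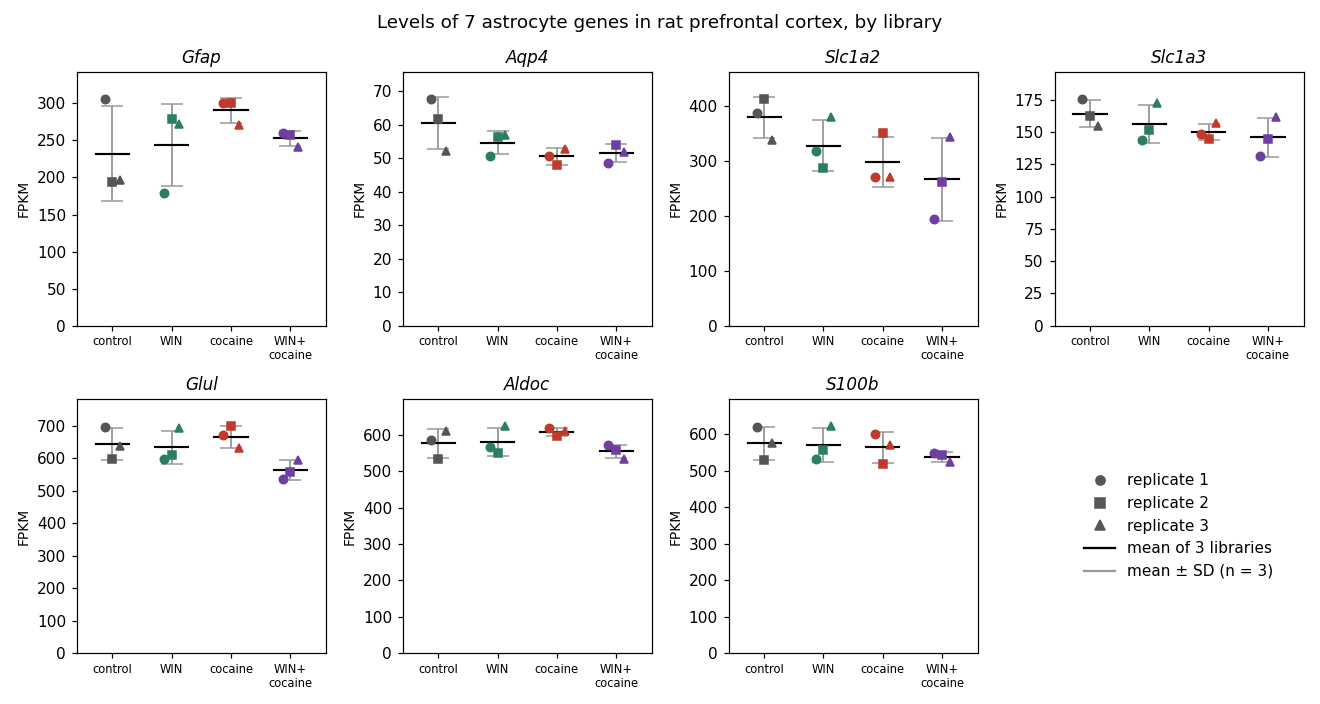
FPKM of each gene in every library, with the mean (black line) and SD (grey bars, n = 3) of each group; circles, squares and triangles are replicates 1, 2 and 3, and each axis starts at 0. The 3 libraries of WIN with cocaine are the lowest for Glul, from 536 to 596, the highest of them just under control replicate 2. The control and WIN libraries are wide for Gfap, from 180 to 306.

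Within groups, the members differed in how steady they were. The within-group SD on the log2(FPKM + 1) scale was 0.26 for Gfap and 0.26 for Slc1a2, beside a median of 0.12 over the 2022 tested genes whose mean reached 50 FPKM. Ordered from the most variable of these genes, Slc1a2 stood at rank 86 and Gfap at rank 88. Aqp4 and Slc1a3 were near that median, with SDs of 0.12 and 0.11, and Glul, Aldoc and S100b were steadier, with 0.09, 0.07 and 0.10. A given group difference is therefore harder to detect for Gfap and Slc1a2 than for the other 5 genes.

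Cocaine against control, the effect of the drug without earlier cannabinoid, had the broadest difference over the whole table, and the astrocyte genes did not move in 1 direction. In value 3 members (Gfap, Glul and Aldoc) were higher in cocaine and 4 lower, although Glul and Aldoc turned to -0.045 and -0.0053 with quantile normalization. The members had a median log2 difference of -0.03, beside -0.02 over all genes. Gfap was higher by 0.35 (SE 0.18, 95% confidence interval -0.05 to 0.76) and Slc1a2 lower, at -0.35 (SE 0.19, -0.76 to 0.05), on the log2(FPKM + 1) scale. Without control replicate 1, the library apart in Gfap, the difference of Gfap was 0.57 (unadjusted p 0.00466, adjusted p 0.0927 in limma). It was smaller, at 0.24 without control replicate 2 and 0.25 without control replicate 3 (adjusted p 0.514 and 0.444 in limma). Aqp4 differed by -0.25 (SE 0.09, -0.45 to -0.05), a percent change of -15.8, and its unadjusted p of 0.0206 and adjusted p of 0.102 in limma were the smallest of the 7. Without control replicate 1 it differed by -0.16 (adjusted p 0.259 in limma), and without control replicate 3 by -0.35 (adjusted p 0.110 in limma). Slc1a3 differed by -0.13, Glul by 0.05, Aldoc by 0.08 and S100b by -0.03, with adjusted p from 0.346 to 0.842 in limma.

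No member passed an adjusted p of 0.05 in this comparison, and neither did any other gene (0% of genes called). At an unadjusted p under 0.05 there was 1 member of 7, Aqp4, where 31.1% of all genes tested were. In none of the 7 did the 3 cocaine libraries lie wholly above or below the 3 controls, as they did in 40.0% of all genes. After median-ratio rescaling this held for 1 member, Aldoc, beside 39.5% of all genes. After quantile normalization it held for 1, Slc1a3, beside 40.2% of all genes. WIN replicate 3 takes no part in the contrast but counts toward the pooled variance, and it had the lowest library weight (0.296). When it was left out, 18.1% of genes were called, again with none of the 7. The adjusted p of Aqp4 was then 0.0833 in limma. At a threshold of 0.10, 19.8% of genes were called and 0 members.

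**Figure D3:**
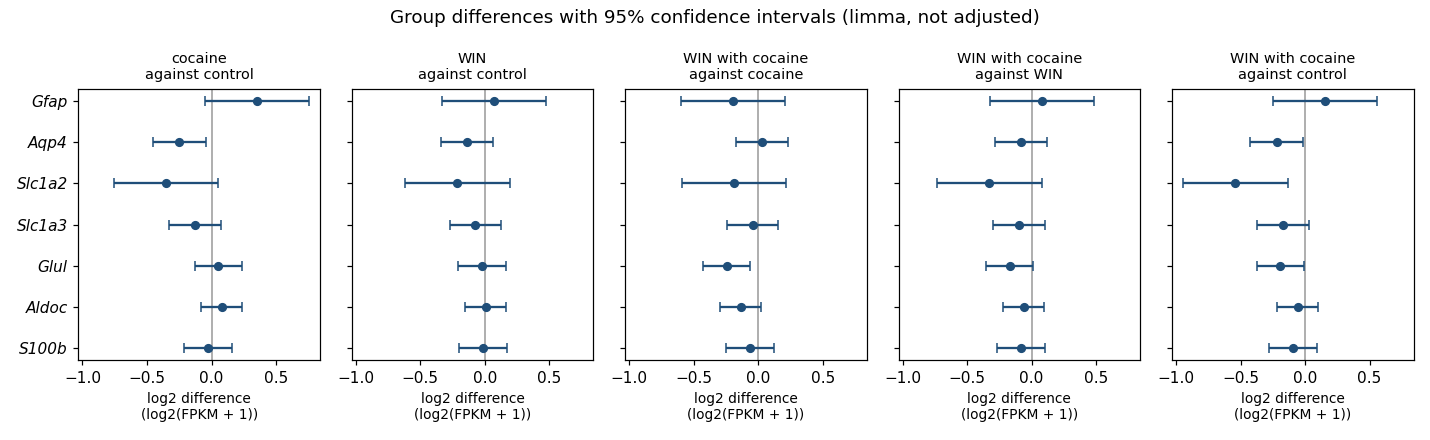
Difference between groups for each gene on the log2(FPKM + 1) scale (points) with its unadjusted 95% confidence interval (bars), in 5 comparisons. The intervals of Aqp4 in cocaine against control, of Glul in WIN with cocaine against cocaine, and of Aqp4, Slc1a2 and Glul in WIN with cocaine against control leave out 0, and none of these differences passed after adjustment over all genes.

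WIN against control, the effect of the cannabinoid alone, gave differences from -0.21 (Slc1a2) to 0.07 (Gfap) on the log2 scale, with a median of -0.02 beside 0.00 over all genes. The intervals were too wide to show that the groups were alike: that of Slc1a2 ran from -0.62 to 0.19 and that of Gfap from -0.33 to 0.48, whereas that of Aldoc ran from -0.15 to 0.17. The value of Slc1a2 was -0.12 without WIN replicate 2 and -0.32 without WIN replicate 3. Limma called 0 members, with an adjusted p of 0.999 for each, and 0 of 7 had an unadjusted p under 0.05, as did 1.55% of all genes. None of the 7 had groups that did not overlap, beside 5.93% of all genes.

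Among the cocaine-treated libraries, those with and without WIN were compared next (WIN with cocaine against cocaine), and 6 of the 7 members had lower values with WIN. The median log2 difference was -0.14, beside 0.02 over all genes. Glul differed by -0.24 (SE 0.08, 95% confidence interval -0.43 to -0.06), a percent change of -15.5, with an unadjusted p of 0.0134 and an adjusted p of 0.468 in limma. Aldoc differed by -0.14 (SE 0.07) and Gfap by -0.20 (SE 0.18), and in Gfap, Glul and Aldoc the libraries of the 2 groups did not overlap. That is 3 of 7 members, beside 18.0% of all genes. The same 3 were separated after median-ratio rescaling (beside 17.4% of all genes) and after quantile normalization (beside 18.2%). Aqp4 differed by 0.03, Slc1a2 by -0.19, Slc1a3 by -0.04 and S100b by -0.06. At an unadjusted p under 0.05 there was 1 member, Glul, beside 10.6% of all genes, and 0 members or other genes passed adjustment in limma. The difference of Slc1a2 hung on single libraries, being 0.022 without WIN with cocaine replicate 1, -0.39 without replicate 3 of that group and -0.065 without cocaine replicate 2.

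Among the WIN-treated libraries, those with and without cocaine made up the next comparison (WIN with cocaine against WIN). Slc1a2 had a log2 difference of -0.33 (SE 0.19, 95% confidence interval -0.73 to 0.08) and Glul one of -0.17 (SE 0.08, -0.35 to 0.01), and 6 of 7 members had lower values. That of Slc1a2 was -0.12 without WIN with cocaine replicate 1 and -0.53 without replicate 3 of that group, and that of Glul was -0.10 without WIN replicate 3. The other 5 members lay between -0.10 and 0.08, and the median over the 7 was -0.08, beside 0.00 over all genes. No member had an unadjusted p under 0.05 (3.76% of all genes did), and limma called 0, with adjusted p from 0.9754 to 0.986. Only Glul had libraries that did not overlap, 1 of 7 members beside 7.46% of all genes, and this was lost in both rescalings.

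The libraries of WIN with cocaine, set against the controls, held the largest difference of any member in the 8 comparisons. Slc1a2 differed by -0.54 (SE 0.19, 95% confidence interval -0.95 to -0.14), a percent change of -31.3, with an unadjusted p of 0.0132 and an adjusted p of 0.617 in limma. The value was -0.33 without WIN with cocaine replicate 1 and -0.74 without replicate 3. Aqp4 differed by -0.22 (SE 0.09) and Glul by -0.19 (SE 0.08), with unadjusted p of 0.0352 and 0.0418 and adjusted p of 0.624 each in limma. Without control replicate 1 the value of Aqp4 was -0.14, and over all alternative settings it ran from -0.32 to -0.14. With Slc1a2 these made 3 of 7 members at an unadjusted p under 0.05, beside 7.91% of all genes. Gfap was the member with a higher value, at 0.15 (0.37 without control replicate 1 and 0.040 without control replicate 2), and the other 6 were lower, with a median over the 7 of -0.17 beside 0.00 over all genes. Groups did not overlap in 1 member, Glul, beside 19.6% of all genes. After median-ratio rescaling this held for 0 members, beside 19.9% of all genes. After quantile normalization it held for Glul, Aldoc and S100b, beside 20.1% of all genes. This comparison shares its control libraries with cocaine against control and WIN against control, so the 3 sets of differences are not independent of each other.

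The interaction, the cocaine difference with WIN minus the cocaine difference without it, tests whether the response itself changed. Glul had the smallest p of the 7, with an interaction of -0.22 (SE 0.12, 95% confidence interval -0.48 to 0.04), an unadjusted p of 0.0873 and an adjusted p of 0.546 in limma. Gfap had -0.27 (SE 0.26), Aqp4 0.17 (SE 0.13) and Aldoc -0.14 (SE 0.10), and the other 3 lay between -0.05 and 0.03. That of Gfap ran from -0.49 without control replicate 1 to -0.16 without control replicate 2, and that of Aqp4 from 0.083 without control replicate 1 to 0.27 without control replicate 3. No member had an unadjusted p under 0.05, beside 9.02% of all genes, and limma called 0 members and 0% of genes. A changed cocaine response was thus not shown for any of the 7, and the interval of Slc1a2, from -0.55 to 0.60, leaves room for large differences in either direction.

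Averaging over the other treatment sets 6 libraries against 6. The cocaine main effect was -0.34 for Slc1a2 (SE 0.13, 95% confidence interval -0.63 to -0.05), or 21.0% lower, and -0.17 for Aqp4 (SE 0.07, -0.31 to -0.02), or 10.8% lower, with unadjusted p of 0.0240 and 0.0274 and adjusted p of 0.141 and 0.151 in limma. These were 2 of 7 members at an unadjusted p under 0.05, beside 25.5% of all genes. The share among the members was thus close to that of the whole table. The WIN main effect was lower in value for all 7 members, from -0.20 for Slc1a2 to -0.04 for S100b (Slc1a2 was at -0.096 without WIN with cocaine replicate 1, and Gfap turned to 0.045 without control replicate 1), with a median of -0.06 beside 0.01 over all genes. Glul, at -0.13 (SE 0.06), was the 1 member with an unadjusted p under 0.05 (0.0446; adjusted p 0.998 in limma), beside 2.44% of all genes. Limma called 0 members and 0 genes in both main effects, and limma voom on the recovered reads called 0 members and 0 genes in each of the 8 comparisons.

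Some libraries stood high or low in all 7 members at once, and the same count over all genes is not given here. Control replicate 1 and WIN replicate 3 were above the 12-library median in 7 of 7 members, whereas WIN replicate 1 and WIN with cocaine replicate 1 were above it in 0. The summed FPKM of the 7 genes was 2838 and 2818 in the first 2 of these libraries and 2389 and 2290 in the other 2, so that libraries of the WIN group lay near both ends. The sum averaged 2632 ± 182 over the controls, 2566 ± 224 after WIN, 2628 ± 55.5 after cocaine and 2372 ± 80.9 after both (SD, n = 3). The highest sum in WIN with cocaine, 2451, lay under every control and cocaine library but above WIN replicate 1. Sums of other sets of genes were not compared, and Glul, Aldoc and S100b, the most abundant members, weigh most in this sum. Gfap made up 7.51% to 11.3% of the sum, with 3 libraries under 8% (control replicates 2 and 3 and WIN replicate 1).

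**Figure D4:**
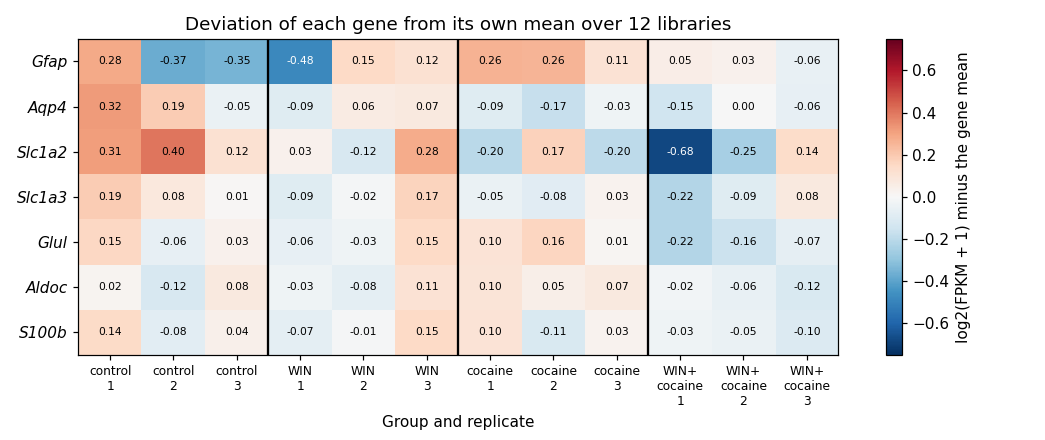
Each cell is log2(FPKM + 1) of a gene in a library minus that gene's mean over the 12 libraries (red higher, blue lower), with libraries ordered by group and replicate and black lines between groups. The lowest cells are Slc1a2 in WIN with cocaine replicate 1 (-0.68) and Gfap in WIN replicate 1 (-0.48), and the columns of control replicate 1 and WIN replicate 3 are above 0 for all 7 genes.

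The members did not vary as 1 block across the 12 libraries. Of the 21 pairs of members, 18 had a positive Pearson's r of the log2 values, from -0.20 (Gfap with Slc1a2) to 0.79 (Slc1a2 with Slc1a3). Values of a library share its scaling, which alone can make genes vary together. Slc1a2 with Slc1a3 had an r of 0.79 (permutation p 0.00214, 0.0303 after Benjamini-Hochberg adjustment over the 21 pairs) and a Spearman's rho of 0.76 (permutation p 0.00625, adjusted 0.0656). Without the 2 libraries farthest from the median of Slc1a2 the r was 0.65, and over deviations from the group means it was 0.67. Aqp4 with Slc1a3 had an r of 0.77 (permutation p 0.00289, adjusted 0.0303) and a rho of 0.77 (permutation p 0.00494, adjusted 0.0656), with 0.67 without the 2 libraries farthest from the median of Aqp4 and 0.68 over deviations from the group means. These 2 pairs passed the adjustment by r, none of the 21 passed it by rho, and all p are two-sided.

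The pairs were also ranked among all genes, as a description. Of the 15325 other genes tested, Slc1a2 was the 10th and Aqp4 the 18th most correlated with Slc1a3 over the 12 libraries, and Slc1a3 was the 11th most correlated with Aqp4. Over deviations from the group means these ranks fell to 174, 163 and 97. In the other direction Slc1a3 was the 123rd most correlated with Slc1a2, and at rank 871 over deviations from the group means. Aldoc with S100b had an r of 0.68, which did not pass adjustment (permutation p 0.0188, adjusted 0.123). Aldoc was at rank 66 for S100b and S100b at rank 326 for Aldoc. Over deviations from the group means their r was 0.75 and these ranks were 262 and 420. For Gfap the closest member by r was Glul, at rank 3018 (r = 0.43, rho = 0.64). Over deviations from the group means its closest members were Aqp4 (r = 0.65, rank 314), S100b (r = 0.63, rank 390) and Glul (r = 0.62, rank 405). Outside the list, the 2 genes with the highest mean r to the 7 members were ENSRNOG00000018231 (0.59) and ENSRNOG00000012988 (0.58), which the table does not name.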

How the data were processed

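RNA of prefrontal cortex was measured in 12 libraries, 3 in each of 4 groups taken from the sample titles; the nucleus accumbens and ATAC libraries were not analysed here. Per the labels' protocols, libraries were made from total RNA with a kit that keeps strand. The authors deposited FPKM values per gene and library; HISAT2, HTSeq and DESeq are named per the submitters' processing notes, without versions, with build, annotation and strand setting not given in the sources used here. Genes that overlap on opposite strands may therefore share reads. The ATAC coordinates follow another build than the reference at hand (GRCr8, 47357 genes, 0 with an Ensembl identifier), so no region was placed at a member, and symbol lists of other cell types were not analysed. The 7 members matched RefSeq by symbol.

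Reads were recovered as whole multiples of 1 step per gene after 1 factor per library (tolerance 0.0001 reads), for all 29663 genes. Implied lengths lay within 0.03 bp of a whole number for 99.98% of 11615 genes with over 200 reads. No 2 libraries agreed within sampling noise (chi-square per degree of freedom 7.59 to 58.3).

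The test was limma 3.58.1 (R 4.3.3) with trended variance on log2(FPKM + 1), 1 mean per group over all 12 libraries, on the 15326 of 29663 genes that reached 1 FPKM in 3 libraries, with Benjamini-Hochberg adjustment over all genes and a threshold of 0.05. Tested on simulated data for cocaine against control (15326 genes, 200 changed, all above an FPKM of 10), it recovered 75% of 1.5-fold and 94% of 2-fold changes (genes were simulated independently of each other). The simulated libraries were of equal quality, whereas the weights of the real ones ran from 0.296 to 2.25. These rates are thus not the power of the test for the 7 members. Correlations used 100000 permutations (Python 3.11.15, numpy 2.4.6). The members, lists and tests were chosen with earlier results of these data known. All 7 members were named by rule, and likeness was ranked by Pearson's r. The alternatives were another pseudocount, no filter, 2 rescalings, library weights, limma voom, a replicate block, a threshold of 0.10, only the libraries compared, and leaving out each library; group overlap after rescaling was added after seeing the data.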

Additional observations from a re-analysis of the deposited data

How the results depend on the processing

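The number of members past an adjusted p of 0.05 was 0 in all 8 comparisons and stayed 0 in 165 of 165 alternatives, the smallest adjusted p of any member being 0.0833 in limma (Aqp4, cocaine against control, without WIN replicate 3). Some of these alternatives called many genes. In cocaine against control these were 2083 with library weights, 1378 with only the libraries compared and 2772 without WIN replicate 3. In the cocaine main effect they were 2797 with library weights and 3286 without WIN replicate 3. Most alternatives called no gene, and in every other comparison none called more than 1 gene. Where no gene was called the count of members could only be 0, so such alternatives are no check of it. Under a replicate block (libraries paired by number) 0 members were called in each comparison, and 3 genes in cocaine against control. Same-numbered libraries deviated together little, with correlations from -0.281 to 0.196 (median 0.014), and 4 of 12 libraries correlated best with their own number. No scaling moved the median of all genes by more than 0.0223 on the log2 scale, but single members moved further. In cocaine against control, quantile normalization took S100b from -0.029 to -0.12 and Glul from 0.052 to -0.045.

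Of 1155 log2 differences of single members, 41 changed sign, in 16 of 56 member and comparison pairs, none of which passed adjustment in the first place; the cause was not tested. With quantile normalization the value became -0.045 for Glul and -0.0053 for Aldoc in cocaine against control, -0.070 for Aldoc in WIN against control, 0.040 for S100b in the interaction and -0.020 for Aldoc in the cocaine main effect. With library weights Aldoc in WIN against control became -0.061, and with median-ratio rescaling Slc1a2 in the interaction became -0.0014. Leaving out single libraries gave these ranges. In WIN against control they were -0.049 to 0.048 for Aldoc, -0.039 to 0.29 for Gfap, -0.087 to 0.034 for Glul and -0.076 to 0.043 for S100b. In cocaine against control S100b ran from -0.085 to 0.031. In WIN with cocaine against cocaine they were -0.0099 to 0.066 for Aqp4, -0.39 to 0.022 for Slc1a2 and -0.12 to 0.028 for Slc1a3, and in WIN with cocaine against WIN Gfap ran from -0.13 to 0.19. In the interaction they were -0.11 to 0.011 for S100b, -0.18 to 0.24 for Slc1a2 and -0.045 to 0.10 for Slc1a3. Aldoc ran from -0.020 to 0.035 in the cocaine main effect and Gfap from -0.12 to 0.045 in the WIN main effect. Counting error was at most 1.35% of any member's value.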
